A study of Mus musculus with 6 samples.

Results

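Aminoacyl-tRNA synthetases join each amino acid to its tRNA and so supply the ribosome with charged tRNA. The cytosol and the mitochondria translate separately, and nuclear genes encode a set of enzymes for each. The cytosolic enzymes load the tRNAs used for all nuclear mRNAs, while the mitochondrial enzymes load those that read the few respiratory chain mRNAs of the mitochondrial genome. Several cytosolic enzymes sit in a multisynthetase complex held together by scaffold proteins. In fetal hepatocytes, which secrete large amounts of plasma protein, both sets are in use. The genes were chosen by symbol alone from the platform annotation, and 36 of the 18193 genes with a probe set of their own matched, 19 with a cytosolic enzyme, 16 with a mitochondrial enzyme (suffix 2) and Tarsl2, a cytosolic paralogue of threonyl-tRNA synthetase that was kept apart. No measured value entered the choice of genes, apart from the use of the brightest probe set where a gene had several.

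Total RNA was measured on 6 expression arrays, 1 for each genotype and time. Fetal hepatocytes came from E16.5 embryos, either Cnot3KO, in which floxed Cnot3 is deleted by Cre driven from the albumin promoter (Alb-cre), or control, labelled wild type, which per the methods could be floxed embryos without Cre or Cre carriers with at least 1 intact Cnot3 allele. Cells of both genotypes were grown with oncostatin M and dexamethasone, in which per the study the loss of Cnot3, incomplete in the fetal liver, became efficient, and were then left untreated (0 h) or given actinomycin D (ActD), an inhibitor of transcription, for 6 or 12 h. The 6 groups are therefore control and Cnot3KO cells at 0, 6 and 12 h, and the number of embryos behind each array is not given in the sources used here. Cnot3 belongs to the Cnot complex, which shortens poly(A) tails. The comparisons address whether the level of synthetase mRNAs depended on genotype, and whether they were lost at another rate once transcription had stopped.

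Values are RMA intensities, which are relative within an array and do not show a loss that all mRNAs have in common. The median intensity of a probe set lay between 69.7 and 72.4 on the 6 arrays. All 36 synthetases passed the filter on low values, and 35 were above the array median on all 6 arrays. Mars2 was the exception, with 19.2 to 51.7. No array has a replicate, so a difference at 1 time comes without an error, and precision is limited by the number of arrays. As a guide, the SD between probe sets of 1 gene was 0.24 (log2) for the genotype difference at 0 h, 0.51 for the change over 12 h in control and 0.42 for the difference between the genotypes in that change. Cnot3 was measured at 296, 214 and 158 in control and at 174, 174 and 146 in Cnot3KO at 0, 6 and 12 h. A second Cnot3 probe set gave 160.4 and 155 at 0 h, a difference of -0.05 (log2), and whether either set lies in the deleted part was not tested. The 8 hepatocyte markers measured were above the array median in both genotypes at 0 h, with Alb at 35595 and 34185.

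Promoter sequence is shown first because Atf4, a transcription factor of the integrated stress response, is known to induce many cytosolic synthetases through the C/EBP-ATF element. The element was searched as TGATGNAA on both strands in the promoters of RefSeq (GRCm38.p6), from 250 bases before to 50 bases after the start. Of the cytosolic genes 12 had a promoter in that table, and 5 held the element, namely Aars, Gars, Iars, Tars and Yars. None of 14 mitochondrial genes held it, nor did Tarsl2, and 4.51% of all 27025 genes did. The windows below run 5′ to 3′ on the strand of the gene, with the matched letters in capitals. Tars is on the minus strand and the others are on the plus strand.

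Aars, chr8:111033841-111033868: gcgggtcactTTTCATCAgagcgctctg
Gars, chr6:55037961-55037988: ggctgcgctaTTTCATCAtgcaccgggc
Iars, chr13:49682127-49682154: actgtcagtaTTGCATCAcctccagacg
Tars, chr15:11399656-11399683: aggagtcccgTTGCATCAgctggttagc
Yars, chr4:129189896-129189923: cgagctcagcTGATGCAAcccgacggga

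In the windows shown, the element read TTGCATCA for Iars and Tars and TTTCATCA for Aars and Gars, both of them the reverse complement of the searched letters, while Yars held it in the forward direction. The E-box CACGTG, which Myc and related factors bind and which reads alike on both strands, was found in 4 of the 12 cytosolic promoters (Aars, Farsb, Iars and Tars), in 1 of the 14 mitochondrial promoters (Ears2) and in 8.09% of all genes. The Nrf1 element, searched as an exact palindrome and bound by a factor known for its role in genes of mitochondrial function, was found in no promoter of either set and in 1.07% of all genes. No match overlapped a match of another motif. A match is a description of the letters only. Cars, Hars, Lars, Nars, Rars, Vars, Wars, Hars2 and Pars2 had no entry.

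Before ActD, the intensity was higher in Cnot3KO than in control for 15 of 19 cytosolic and for all 16 mitochondrial synthetases, numbers that became 11 of 19 and 15 of 16 when arrays were centred on their median. Of all genes 54.7% were higher, and 37.8% under that centring, which moved the median difference of all genes from 0.03 to -0.09 (log2). The median difference was 0.20 for cytosolic and 0.31 for mitochondrial synthetases, and this gap between the medians has no test. More than 1.5-fold higher were 4 of 36 synthetases, Farsa, Cars, Tars2 and Ears2, against 6.87% of all genes at 0 h. None was more than 1.5-fold lower, against 2.99% of all genes. The difference at 0 h has no test, and fewer cells of a type and less RNA per cell cannot be told apart in such bulk RNA.

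**Figure D1:**
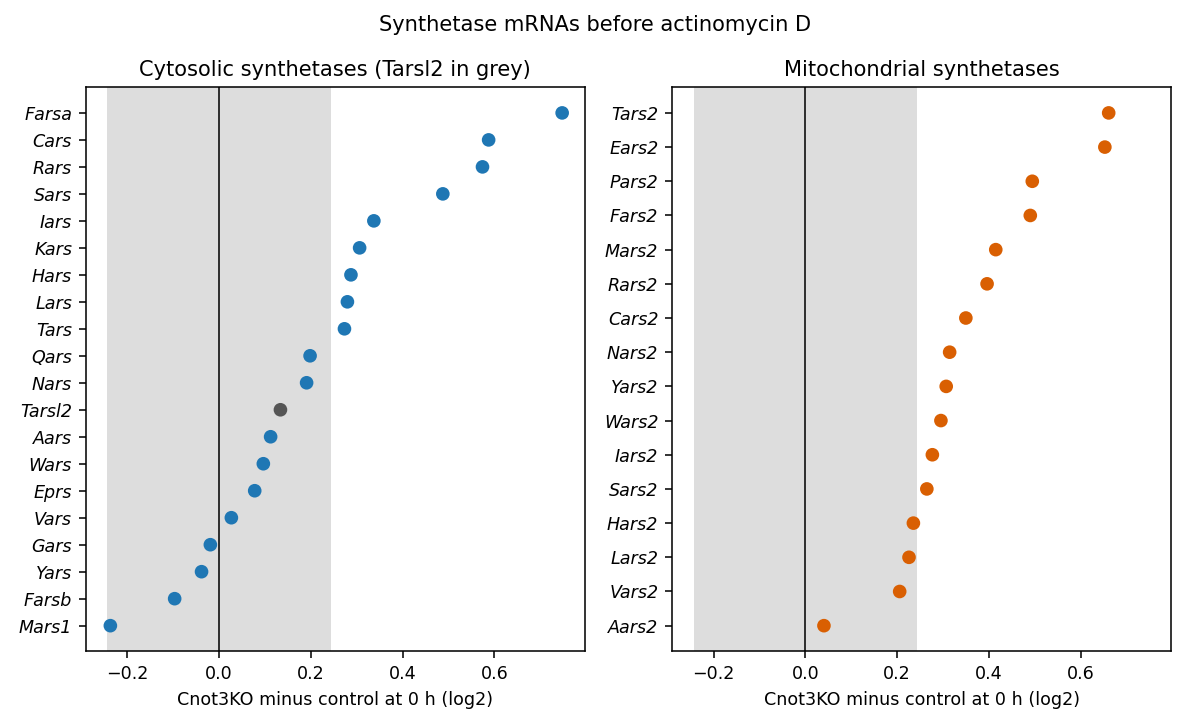
Difference in log2 RMA intensity between Cnot3KO and control cells at 0 h for each synthetase, cytosolic on the left with Tarsl2 in grey and mitochondrial on the right, 1 array per genotype. The grey band is ± 1 SD between probe sets of a gene (0.24). All mitochondrial points lie to the right of 0, from Aars2 at 0.04 to Tars2 at 0.66, while the cytosolic points run from Mars1 at -0.24 to Farsa at 0.75.

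Farsa encodes the alpha subunit of cytosolic phenylalanyl-tRNA synthetase. Its intensity was 451, 499.6 and 390.4 in control and 757, 749 and 662 in Cnot3KO at 0, 6 and 12 h, a difference of 0.75 (log2, 1.68-fold) at 0 h. The 3 Cnot3KO arrays lay above all control arrays, as in 15.9% of all genes. Other probe sets of Farsa gave -0.05, -0.10 and -0.17 at 0 h, so the difference rests on the brightest of its probe sets. Farsb, the beta subunit of the same enzyme, was measured at 2317, 2643 and 2083 in control and at 2167, 2562 and 1524 in Cnot3KO, a difference of -0.10 at 0 h. Other probe sets of Farsb gave 0.01, -0.01 and 0.10. Without probe sets of shared sequence the signs of both subunits were turned, to -0.17 for Farsa and 0.10 for Farsb.

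Tars2, the mitochondrial threonyl enzyme, was measured at 389.99, 545 and 501 in control and at 617, 653 and 691 in Cnot3KO. All its Cnot3KO values lay above all those of control, as in 15.9% of all genes. The difference at 0 h was 0.66 (1.58-fold), and a second probe set gave 0.56. Ears2, the mitochondrial glutamyl enzyme, which also loads glutamate on the mitochondrial tRNA for glutamine, had 222, 233 and 139 in control and 349.8, 324 and 294 in Cnot3KO. Its difference was 0.65 at 0 h and 1.08 at 12 h, while dimmer probe sets gave between -0.06 and 0.20 at 0 h. Cars, the cytosolic cysteinyl enzyme, had 657, 805 and 545 in control and 987, 921 and 758 in Cnot3KO, a difference of 0.59 that was just past the 1.5-fold limit, with -0.04 by its second probe set. Rars, the arginyl enzyme of the multisynthetase complex, was just short of the limit at 0.57. It was measured at 2891, 3183 and 2716 in control and at 4304, 4789 and 4790.2 in Cnot3KO. The genotypes did not overlap, with Cnot3KO higher, as in 15.9% of all genes.

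The lowest differences at 0 h were those of Mars1, Farsb, Yars and Gars, all cytosolic. Mars1 is the methionyl enzyme that serves initiation as well as elongation. It had 2690.3, 3087 and 2688 in control and 2283, 2382 and 1949 in Cnot3KO, with -0.24 at 0 h. Every Cnot3KO value was below every control value, and the share of all genes with that order was not counted. Yars, the tyrosyl enzyme, had 823, 833 and 591 in control and 801, 777 and 615 in Cnot3KO. The genotypes overlapped, with -0.04 at 0 h. Gars, the glycyl enzyme, had 7189.7, 6994 and 5783 in control against 7096, 6890.4 and 6127 in Cnot3KO, with -0.02 at 0 h. Among the 5 genes with the C/EBP-ATF element in their promoter, the difference at 0 h was 0.34 for Iars, 0.27 for Tars, 0.11 for Aars, -0.02 for Gars and -0.04 for Yars, within the range of the other cytosolic synthetases. Iars had 3571, 3449 and 2704 in control and 4512, 3566 and 2914 in Cnot3KO, and Tars had 2686, 2862 and 2591 in control and 3247, 3659 and 3054 in Cnot3KO.

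Other members lay between the highest and the lowest of these differences at 0 h. Sars, the cytosolic seryl enzyme, had 1657, 2064 and 1540.4 in control and 2324, 2237 and 1799.5 in Cnot3KO, a difference of 0.49 at 0 h, with 0.61 by a second probe set, and of 0.22 at 12 h. Aars, the alanyl enzyme, had 2606, 3018 and 2487 in control and 2817, 2677 and 2149.8 in Cnot3KO, so that its values crossed between 0 and 6 h. Wars and Vars, the tryptophanyl and valyl enzymes, gave 0.10 and 0.03 at 0 h, and Hars gave 0.29. Of the mitochondrial enzymes, Wars2 gave 0.30, Sars2 0.26 and Vars2 0.21. Higher in Cnot3KO at all 3 times were 7 of 19 cytosolic and 11 of 16 mitochondrial synthetases and Tarsl2, against 30.5% of all genes.

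A few cytosolic genes also serve the mitochondria. Kars, the lysyl enzyme, and Gars each encode both forms from 1 gene, which array probes at the end of the mRNA cannot tell apart. Kars was measured at 2422, 3676 and 3365 in control and at 2995, 3315 and 3084 in Cnot3KO, a difference of 0.31 at 0 h and of -0.13 at 12 h. Qars, the cytosolic glutaminyl enzyme, has no mitochondrial counterpart, because mitochondria convert glutamate on the tRNA to glutamine. It had 2097, 2532 and 3157 in control and 2407, 2456 and 2543 in Cnot3KO. By this probe set Cnot3KO was the higher genotype at 0 h, with a difference of 0.20, and control at 12 h, with -0.31. Other probe sets of Qars gave 0.33, -0.22 and -0.02 at 0 h, so the order of the genotypes depended on the probe set. Eprs joins the glutamyl and the prolyl enzyme in 1 cytosolic protein. It had 3497, 3754 and 3583 in control and 3690.2, 3472 and 2623 in Cnot3KO, with 0.08 at 0 h and -0.45 at 12 h. Tarsl2 had 165, 210 and 197 in control and 181, 234 and 219.6 in Cnot3KO, with 0.13, 0.15 and 0.15 at 0, 6 and 12 h.

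A limma model with the times as pairs tested the genotypes over the whole course. These pairs are a time course and no replicates, so the p-values measure how evenly a difference ran along the course. At an adjusted p under 0.05 none of the 36 synthetases was called, against 0.988% of all genes. At an unadjusted p under 0.05, 12 were higher in Cnot3KO, 3 of them cytosolic and 9 mitochondrial, against 22.4% of all genes, and Mars1 was lower, against 11.0% of all genes. For cytosolic synthetases 3 of 19 is below the share among all genes and for mitochondrial ones 9 of 16 is above it. Farsa, Rars and Cars were the cytosolic 3, and Tars2, Ears2, Pars2, Mars2, Rars2, Nars2, Yars2, Sars2 and Hars2 the mitochondrial 9. Farsa differed by 0.70 ± 0.14 (log2, SE, limma adjusted p = 0.0541), Rars by 0.66 ± 0.14 (adjusted p = 0.0571) and Ears2 by 0.73 ± 0.17 (adjusted p = 0.0612), each higher at 3 of 3 times. Mars2 differed by 0.92 ± 0.21 (limma adjusted p = 0.0612) and Mars1 by -0.36 ± 0.14 (adjusted p = 0.141). Without the arrays of 0 h, 9 synthetases were called, Farsa, Rars, Ears2, Hars2, Mars2, Nars2, Pars2, Rars2 and Yars2, but so were 35.3% of all genes. Without the arrays of 6 h or those of 12 h limma called none, nor any other gene, with 6 and 7 synthetases at an unadjusted p under 0.05, near the 13.3% and 21.6% of all genes.

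Under ActD the sets differed in spread. The SD of the change over 12 h in control was 0.30 for cytosolic and 0.75 for mitochondrial synthetases, and 0.91 for all genes. Mitochondrial synthetases were also dimmer, at 38.8 to 686 in control at 0 h against 451 to 7189.7 for cytosolic ones. The part of this in the spread was not tested. The median change from 0 to 12 h in control cells was -0.05 (log2) for cytosolic and -0.36 for mitochondrial synthetases, with 0.15 for all genes. In Cnot3KO cells it was -0.21 for cytosolic and -0.00 for mitochondrial synthetases, with 0.08 for all genes. No cytosolic synthetase moved by more than 0.59 in control or 0.63 in Cnot3KO, while mitochondrial ones moved by up to 1.46 in control and 0.89 in Cnot3KO. The 12 h against 0 h term over both genotypes called none of the 36 at an adjusted limma p under 0.05, against 6.76% of all genes. At an unadjusted p under 0.05, 2 were higher at 12 h (Iars2 and Aars2), against 14.0% of all genes, and 5 were lower, against 15.8% of all genes. These 5 were Iars, Yars, Fars2, Rars2 and Nars2. Fars2, the mitochondrial phenylalanyl enzyme, had 434, 494 and 258 in control and 609, 494 and 329.7 in Cnot3KO, with the lowest value of both genotypes at 12 h and a change of -0.82 ± 0.20 (SE, limma adjusted p = 0.0653).

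**Figure D2:**
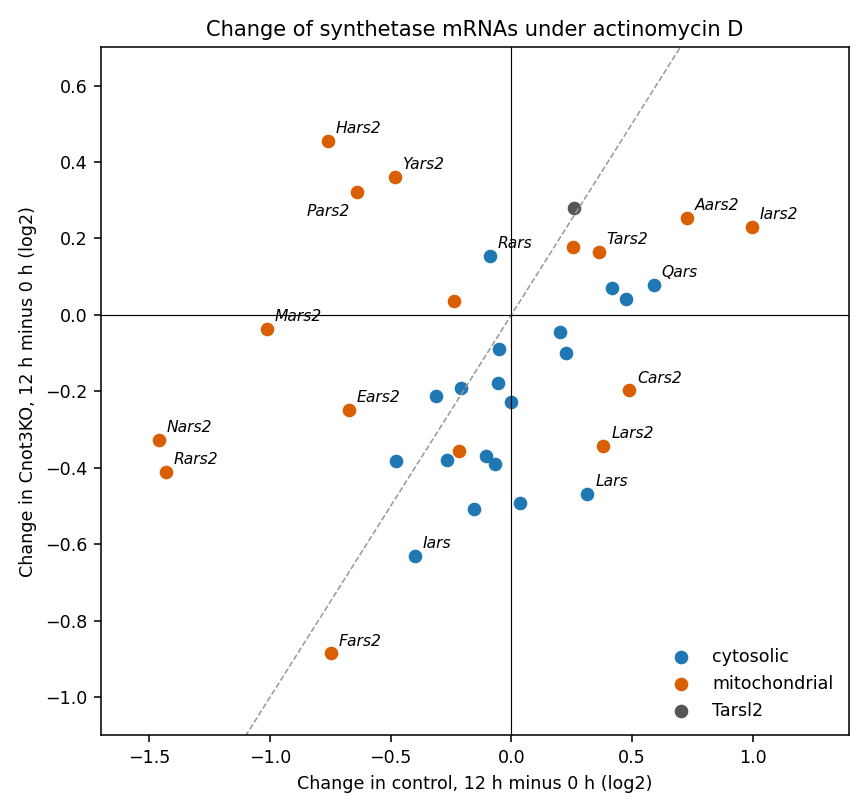
Change in log2 RMA intensity from 0 to 12 h of ActD in control cells (horizontal axis) and in Cnot3KO cells (vertical axis), 1 point per synthetase, with equal change on the dashed line. Cytosolic points lie within 0.63 of 0 on both axes, while Nars2 (-1.46) and Rars2 (-1.43) are farthest to the left and Iars2 farthest to the right among mitochondrial points.

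The difference in change is the change over 12 h in Cnot3KO minus that in control, fitted as the genotype by hours term, and a positive value means that the mRNA kept a higher level in Cnot3KO relative to its start. No synthetase passed the limma test at an adjusted p under 0.05, nor did any gene (0% of genes). At an unadjusted p under 0.05, 3 were positive, Hars2, Rars2 and Mars2, against 12.8% of all genes, and 2 were negative, Lars and Iars2, against 4.95% of all genes. The median was -0.25 for cytosolic and 0.10 for mitochondrial synthetases, with -0.04 for all genes. The sign of the mitochondrial median was not stable, at -0.08 with a filter at the 50th percentile, -0.05 with the mean over probe sets, -0.23 with median centring and -0.10 at 6 h. The difference in change was positive for 4 of 19 cytosolic and for 8 of 16 mitochondrial synthetases, against 47.1% of all genes. The counts became 0 of 19 and 7 of 16 when arrays were centred on their median, which moved the median of all genes from -0.04 to -0.36. The SD across members was 0.25 for cytosolic and 0.72 for mitochondrial synthetases, and 0.72 for all genes.

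Of mitochondrial synthetases 6 of 16 had a difference in change over 0.8, against none of 19 cytosolic ones and 17.4% of all genes. With arrays centred on their median 2 of 16 remained over 0.8 (Hars2 and Nars2), against none of 19 and 10.7% of all genes. With the mean over probe sets there were 4 of 16, against 12.1% of all genes. Without probe sets of shared sequence there were 4 of the 13 then measured, against 16.8% of all genes. Hars2, the histidyl enzyme, was measured at 218, 174 and 129 in control and at 257, 269.7 and 352 in Cnot3KO. The values went down along the course in control and up in Cnot3KO, with a difference in change of 1.22 ± 0.30 (SE, limma adjusted p = 0.188) and 0.47 by a second probe set. Its neighbour in the genome, Hars, for the cytosolic histidyl enzyme, gave -0.25. Rars2, the arginyl enzyme, had 686, 397 and 255 in control and 903, 716 and 679 in Cnot3KO. Values went down in both genotypes, less so in Cnot3KO, and the difference in change was 1.02 ± 0.29 (adjusted p = 0.198). Mars2, the methionyl enzyme, had 38.8, 22.1 and 19.2 in control and 51.7, 42.6 and 50.4 in Cnot3KO. These values are low, below the array medians, and its other probe set, also below them, gave -0.81 against 0.98 by the set used.

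Nars2, the asparaginyl enzyme, had 346, 351 and 126 in control and 430.2, 483 and 343 in Cnot3KO. Its control value was low only at 12 h, the difference in change was 1.13 ± 0.62 (limma adjusted p = 0.374), and a dimmer probe set below the array median gave -0.18. Pars2, the prolyl enzyme, had 185, 152 and 119 in control and 261, 206 and 326 in Cnot3KO, a difference in change of 0.96. Yars2, the tyrosyl enzyme, had 394, 401 and 282 in control and 487, 672 and 626 in Cnot3KO, a difference in change of 0.85, with 0.82 by its second probe set. In all 6 genes every Cnot3KO array was above the control array of the same time, as in 30.5% of all genes. The 6 were chosen by a difference in change over 0.8 and were higher in Cnot3KO at 0 h. A higher value at 12 h follows from that choice.

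**Figure D3:**
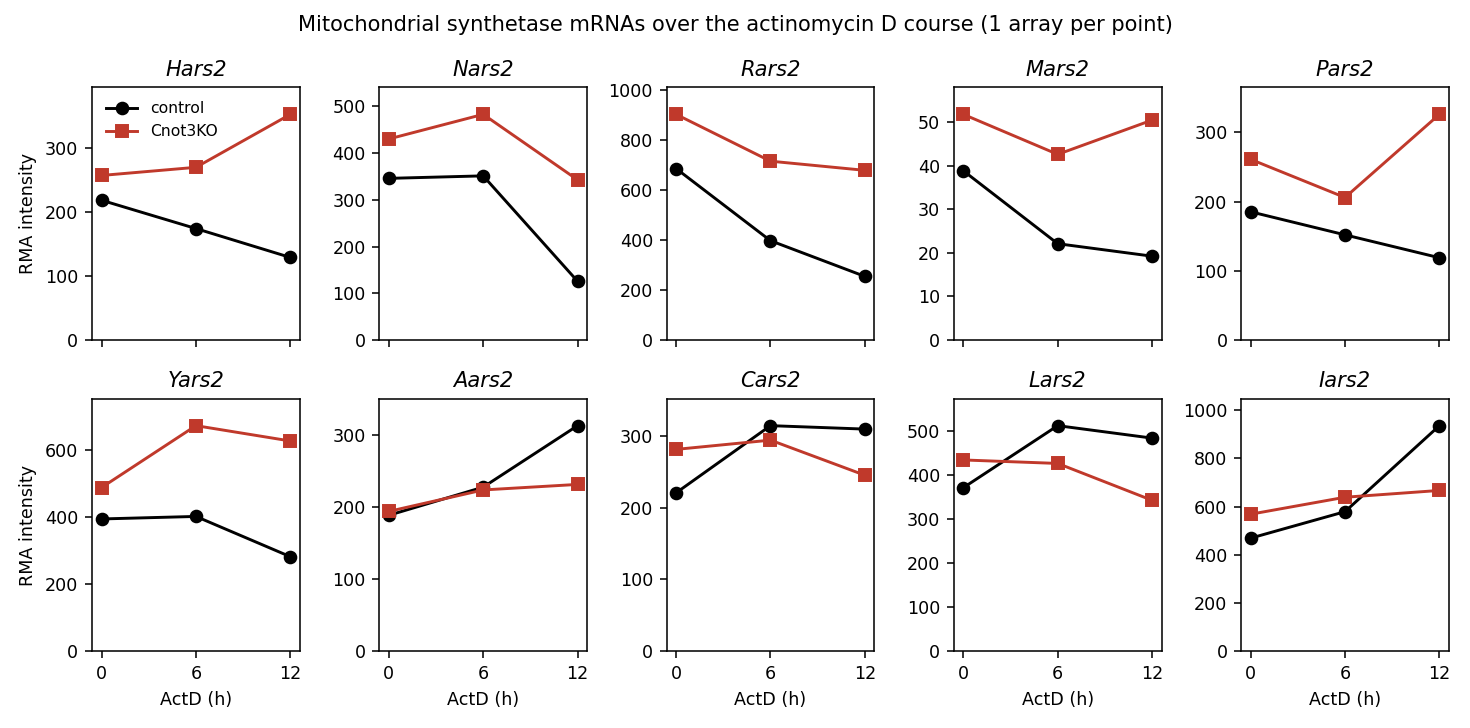
RMA intensity over hours of ActD for the 6 mitochondrial synthetases with the highest difference in change (Hars2 to Yars2) and the 4 with the lowest (Aars2 to Iars2), control in black and Cnot3KO in red, 1 array per point. In the first 6 the red line stays above the black line and ends between 1.15 and 1.46 (log2) above it at 12 h, while in the last 4 the lines cross and the black line ends higher.

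A difference in change under -0.4, a looser limit than the 0.8 used above, was found in 4 of 16 mitochondrial and 4 of 19 cytosolic synthetases, near the 22.9% of all genes. With arrays centred on their median these counts became 8 and 14, against 47.4% of all genes. They were 3 and 3 with the mean over probe sets, against 20.6% of all genes. Without probe sets of shared sequence they were 4 of 13 and 6 of 18, against 23.9% of all genes. Iars2, the mitochondrial isoleucyl enzyme, had 469, 579 and 935 in control and 568, 638 and 667 in Cnot3KO, with -0.77 ± 0.31 (SE, limma adjusted p = 0.276) and -0.38 by a second probe set. Lars2, the leucyl enzyme, had 371, 511 and 483 in control and 433, 426 and 342 in Cnot3KO, with -0.72, and -0.32 and -0.10 by other probe sets. Cars2 had 220.5, 314 and 309 in control and 281, 294 and 245 in Cnot3KO, with -0.69, and -0.84 and -1.11 by other probe sets. Aars2, the alanyl enzyme, reached 314 at 12 h in control against 232 in Cnot3KO, from 189 and 194 at 0 h. In all of these the genotypes changed places along the course, Cnot3KO being higher at 0 h and control at 12 h.

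With the probe sets used, the cytosolic 4 were Lars, Eprs, Qars and Kars, all enzymes of the multisynthetase complex. Lars, the leucyl enzyme, which also senses leucine for mTORC1, had 2354, 2878 and 2929 in control and 2858, 2522 and 2065 in Cnot3KO, with -0.78 ± 0.29 (SE, limma adjusted p = 0.254). Its values were highest at 12 h in control and lowest at 12 h in Cnot3KO. Eprs gave -0.53, with -0.72, 0.18 and -1.08 by other probe sets. Qars gave -0.51, with -0.31, -0.18 and 0.79 by other probe sets, and Kars -0.43. A second probe set of Hars gave -0.53, and other probe sets of Wars gave -0.52, -0.19 and -0.05. Which cytosolic genes fell under -0.4 therefore depended on the probe set. Rars, of the same complex, gave 0.24, and Iars and Mars1 gave -0.23 each.

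Where a cytosolic and a mitochondrial enzyme serve the same amino acid, the mitochondrial gene had the higher difference in change in 11 of 17 pairs, the larger difference at 0 h in 9 of 17 and the lower change in control in 11 of 17. Eprs and Fars2 enter 2 pairs each. For asparagine, Nars gave -0.34 and Nars2 1.13, with Nars at 5213, 6928 and 6956 in control and at 5950.1, 6600 and 6251 in Cnot3KO. A second probe set of Nars, also above the median on all 6 arrays, gave 0.04, and 0.52 at 0 h. For leucine both genes were low, at -0.78 and -0.72. For isoleucine, cysteine and alanine the mitochondrial gene was the lower of the pair.

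**Figure D4:**
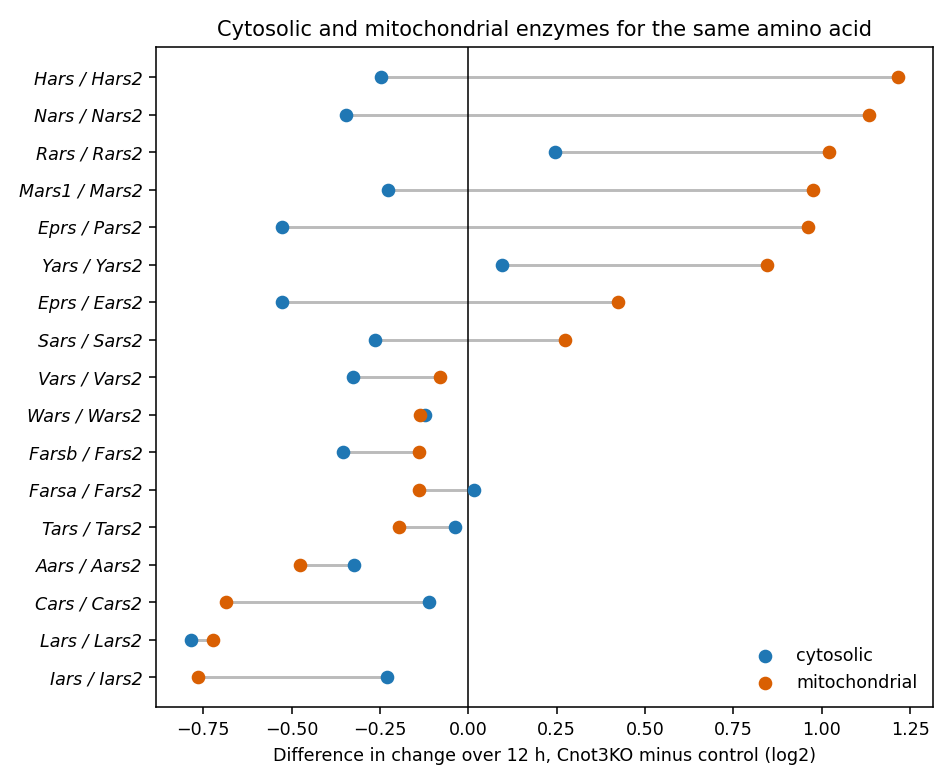
Difference in change over 12 h of ActD (Cnot3KO minus control, log2) for the cytosolic (blue) and the mitochondrial (orange) enzyme of the same amino acid, joined by a grey line, 17 pairs sorted by the mitochondrial value. Mitochondrial points spread from -0.77 (Iars2) to 1.22 (Hars2), while cytosolic points stay between -0.78 (Lars) and 0.24 (Rars).

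The scaffold proteins of the multisynthetase complex, Aimp1, Aimp2 and Eef1e1, were all higher in Cnot3KO at each time, and 3 of 3 had an unadjusted limma p under 0.05, as did 22.4% of all genes in that direction, and none after adjustment. Aimp2 was measured at 1495, 1312 and 886 in control and at 2477, 2529 and 2369 in Cnot3KO, a genotype difference of 1.03 ± 0.18 (SE, limma adjusted p = 0.0526). Eef1e1 had 1825, 1423 and 942 in control and 2322, 3102 and 2959 in Cnot3KO, with a difference in change of 1.30 ± 0.33 (adjusted p = 0.189). Aimp1 had 1683, 1948 and 1501 in control and 2448, 2799 and 2484 in Cnot3KO. In all 3 genes every Cnot3KO value was above every control value, as in 15.9% of all genes. The enzymes of the complex ran from 0.57 (Rars) to -0.24 (Mars1) at 0 h.

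Among 6 genes that act on charged tRNA afterwards, by amidation, formylation or selenocysteine synthesis, none was called at an adjusted p under 0.05, and 4 were higher in Cnot3KO at an unadjusted limma p under 0.05, against 22.4% of all genes. Mtfmt, which formylates the mitochondrial initiator methionyl-tRNA that Mars2 makes, had 205, 87.1 and 65.5 in control and 282, 237 and 321 in Cnot3KO, a difference in change of 1.84 ± 0.45 (SE, limma adjusted p = 0.189). Qrsl1 and Gatb are subunits of the amidase that turns the product of Ears2 into glutaminyl-tRNA. Qrsl1 had 334, 179 and 176 in control and 380.1, 448 and 543 in Cnot3KO, with 1.44, whereas Gatb had 251, 427 and 440.5 in control and 269.6, 287 and 254.5 in Cnot3KO, with -0.89. Gatc, the other subunit, gave -0.07. Pstk, a kinase of the selenocysteine route, was higher by 0.47 at 0 h and Sepsecs, the synthase of that route, by 0.38.

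Of 5 proofreading and release genes none was past 1.5-fold at 0 h, against 6.87% of all genes higher and 2.99% lower. Higher in Cnot3KO at an unadjusted limma p under 0.05 was 1 of 5, Prorsd1, near the 22.4% of all genes. It differed by 0.34 at 0 h, Dtd1 by 0.32 and Dtd2 by 0.24. The elongation factors, which carry the charged tRNA to the ribosome, had a median difference at 0 h of -0.07 in the cytosol (4 genes) and 0.22 in the mitochondria (4 genes), against 0.03 for all genes. None was past 1.5-fold, against the same 6.87% and 2.99% of all genes. Gfm1, a mitochondrial elongation factor, had 751, 1174 and 1639 in control and 927, 1042 and 907 in Cnot3KO, a difference in change of -1.16 ± 0.31 (SE, limma adjusted p = 0.189). Its values were highest at 12 h in control and lowest at that time in Cnot3KO, opposite to Hars2. Its difference at 0 h was 0.30, that of Tsfm 0.27 and that of Tufm 0.17. Eef1b2 gave -0.10, and Eef2 and Eef1d gave -0.07 each.

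Of 18 regulators of the integrated stress response 8 were over 1.5-fold higher in Cnot3KO at 0 h and none lower, against 6.87% and 2.99% of all genes, with a median of 0.45, against 0.03 in all genes. Chac1, a glutathione-degrading enzyme induced by this response, was the only one called over the 3 times. It had 294, 69.4 and 70.4 in control and 741, 156 and 133 in Cnot3KO, with 1.14 ± 0.15 (SE, limma adjusted p = 0.0499). Its call was lost, as was every call of a gene for genotype, without a filter, with a filter at the 50th percentile, with log2(value + 16) and with centring on ribosomal protein genes, where its adjusted limma p lay between 0.0512 and 0.0697. Ddit3, which encodes the factor Chop, differed by 1.05 at 0 h and Trib3, its partner, by 0.97. At an unadjusted limma p under 0.05 over the 3 times 12 of 18 were higher, against 22.4% of all genes. In the same test 1 was lower, against 11.0% of all genes, namely Atf5, with -0.30, -0.67 and -1.17 at 0, 6 and 12 h. Atf4 was measured at 6032, 1018 and 936 in control and at 7659, 2810.1 and 2359 in Cnot3KO, a difference of 0.34 at 0 h and of 1.47 and 1.33 at 6 and 12 h. Atf4, Chac1, Trib3 and Eif2ak3, the kinase Perk, changed between 0 and 12 h over both genotypes, Atf4 by -2.19 ± 0.30 (SE, limma adjusted p = 0.0256).

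Of 17 genes of amino acid synthesis and transport known as Atf4 targets, 4 were over 1.5-fold higher at 0 h and none lower, against 6.87% and 2.99% of all genes, with a median of 0.26. Slc3a2, the heavy chain of several amino acid transporters, was called, with 1.32 ± 0.15 (SE, limma adjusted p = 0.0499). It had 1666, 1301 and 1516 in control and 3647, 3149 and 4479.5 in Cnot3KO. The call was lost in the same 4 settings as that of Chac1. Without probe sets of shared sequence Slc3a2 had no value, so its call could not be made there. Slc7a11, the cystine transporter that pairs with it, differed by 1.34 at 0 h, Shmt2, a mitochondrial enzyme of serine and glycine exchange, by 0.65 and Slc7a3, a transporter of cationic amino acids, by 0.60. Slc7a1, another such transporter, changed over both genotypes by -1.99 ± 0.22 between 0 and 12 h (SE, limma adjusted p = 0.0190). Asns, which makes asparagine, differed by 0.29. At an unadjusted limma p under 0.05 over the 3 times 3 of 17 were higher, against 22.4% of all genes. In the same test 1 was lower, against 11.0% of all genes, namely Slc7a5, with -0.17, -0.74 and -1.21 at 0, 6 and 12 h. Cytosolic synthetases, many but not all of them known targets of the same factor, had a median of 0.20, with 2 of 19 over 1.5-fold.

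Markers of other cell types also differed between the genotypes. The summed intensity of 8 macrophage markers was 6970.3 to 8668 on control and 5022 to 5496 on Cnot3KO arrays, that of 8 leukocyte markers 8408 to 9857 and 6612 to 7329, and that of 6 megakaryocyte markers 4534 to 7444 and 3390.3 to 3922. For 8 endothelial markers it was 665 to 1629.9 and 446 to 1095, for 7 stellate markers 11049 to 12862 and 6229 to 10654, and for 5 erythroid markers 441 to 465 and 354 to 369. Cholangiocyte markers went the other way, with 19421 to 22716 on control and 34110 to 41341 on Cnot3KO arrays over 6 genes, of which 4 were over 1.5-fold higher at 0 h, led by Cldn4 (1.20) and Krt19 (1.13), while Sox9 gave -0.28 at 0 h and Epcam -0.14 at 12 h. The 8 hepatocyte markers summed to 139820 to 155610 and 136840 to 143670. Alb, Ttr, Apoa1 and Fgb, the brightest, weigh most in these sums and lay between -0.14 and -0.01 at 0 h. Of the others, Cps1, a urea cycle enzyme, gave -1.50 at 0 h, Apoh -0.55, Ahsg -0.26 and Hnf4a 0.33. No defining marker was at 0, since RMA gives every probe set a value. The part of these differences in the synthetase values was not tested.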

How the data were processed

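Total RNA of fetal hepatocytes was hybridised to Affymetrix Mouse Genome arrays, 1 for each genotype and time, and samples were grouped by their labels. Per the labels, the authors computed 1 intensity per probe set with RMA. Its software and version were not stated in the sources used here. RMA corrects background, equalises the arrays and summarises probes, so changes are relative within an array. The deposited intensities are linear, and log2 was taken here.

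The table held 45037 probe sets, of which 34945 carried 1 gene symbol in the platform annotation, 932 several and 9160 none. For each gene the brightest probe set (mean log2 over the arrays) among those naming it alone was used. Of the synthetases 13 had a single probe set, and all 36 gene identifiers were found in RefSeq (GRCm38.p6). A gene was kept when 1 or more of the arrays compared had it above their 20th percentile, 16499 over all arrays and 16110 at 0 h.

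The genotype difference over the 3 times and the 12 h against 0 h change came from 1 limma model with genotype and time as terms (lmFit and eBayes, limma 3.58.1, R 4.3.3). The difference in change was the genotype by hours term times 12. Both models have 2 residual degrees of freedom, and p-values were adjusted over all genes by the Benjamini-Hochberg method at 0.05. The difference at 0 h was counted past 1.5-fold, with no test. The SD between probe sets came from 4117 genes with a second probe set. Models were tested on simulated data. An item of the promoter search is not reported here.

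The genes, lists and tests were chosen with earlier results of these data known. Values on every array are given for the 4 highest and 4 lowest synthetases at 0 h, the 3 highest and 3 lowest differences in change, those called by a test and the compartment cases Gars, Kars, Qars, Eprs and Tarsl2. Others were named after their values were seen. Of each list the 3 members with the largest difference at 0 h, those called and Atf4 are given, others being named likewise. Alternatives concerned the filter, probe sets, pseudocount, scaling, variance model, arrays and test.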

Additional observations from a re-analysis of the deposited data

Results flagged for a closer look

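In 4 synthetases the change from 0 h had opposite signs in the genotypes at both 6 and 12 h. The difference in change was 1.22 (log2, Cnot3KO minus control) for Hars2, -0.53 for Eprs, -0.78 for Lars and -0.72 for Lars2. The test of the difference itself, the genotype by hours term in limma, did not pass for any of these (adjusted p = 0.188, 0.391, 0.254 and 0.327). Such opposite signs were found in 13.8% of all genes, against 4 of 36 synthetases.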

How the results depend on the processing

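The labels carry no replicate numbers, so no replicate block was fitted beyond the times that pair the genotypes. The count of synthetases over 1.5-fold higher at 0 h was 4, and became 1 (Tars2) with the mean over probe sets of a gene. It was 2 (Cars and Ears2) without probe sets of shared sequence and 1 (Farsa) with arrays centred on their median. Without probe sets of shared sequence only 32 synthetases were measured, and Tars2 was not among them. For the genotype difference over the 3 times the count was 0 with limma, 2 (Rars and Rars2) with the mean of probe sets, 3 (Mars1, Mars2 and Rars2) with median centring, 2 (Mars2 and Rars) with an intensity trend in the variance and 9 without the arrays of 0 h. The count for 12 h against 0 h was 0, 1 (Fars2) with the mean of probe sets and 2 (Iars2 and Rars2) with median centring. All genes called for genotype moved with these settings too, from 163 to 1625, 649, 5150 and 2063 with the mean of probe sets, without shared sequence, with median centring and with the trend, and to 0 without a filter, with a filter at the 50th percentile, with log2(value + 16) and with centring on 48 ribosomal protein genes. The methods' t-test on genotype gave 9 synthetases higher and 1 lower at their threshold and 0 after Benjamini-Hochberg adjustment, with 16.3% of all genes at that threshold. Farsa turned to -0.17 at 0 h without probe sets of shared sequence. The cytosolic minus mitochondrial median at 0 h kept its sign in every alternative run, from -0.18 to -0.06. With 6 h in place of 12 h, the difference in change was 0.40 for Hars2, 0.45 for Rars2, 0.14 for Nars2 and -0.14 for Iars2. The cause of these shifts was not tested. Counting Tarsl2 as mitochondrial was chosen after seeing the data and changed no call.

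One array per genotype and time leaves the differences at 0 h without an error, and the brightest probe set decides several of them, Farsa, Ears2 and Cars among these.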
